A study of Mus musculus with 3 samples.

Results

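The nuclear genes for subunits of the 5 oxidative phosphorylation complexes were described in Mef2c-deficient and control multipotent progenitors (MPPs). They were found by the gene names of the array: Nduf genes of the A, B, C, S and V series for complex I, Sdha to Sdhd for complex II, Uqcr genes for complex III, Cox4 to Cox8 genes for complex IV and Atp5 genes for complex V. No measured level entered the choice of genes, and each was represented by its probe with the brightest signal. There were 80 such genes among 27962 gene names, and 79 of them were tested among 22410 genes with signal. The remaining gene, Cox8c, is a testis isoform of complex IV, and its probe was not well above background in any library. Complex I held 35 of the tested genes, complex II 4, complex III 7, complex IV 17 and complex V 16.

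In oxidative phosphorylation, complexes I and II pass electrons from NADH and succinate to ubiquinone, complex III passes them on to cytochrome c, and complex IV passes them to oxygen. Complexes I, III and IV pump protons across the inner mitochondrial membrane, and complex V, the ATP synthase, uses the gradient to make ATP. Most subunits are encoded in the nucleus and imported, while a few central ones are encoded by mitochondrial DNA. Blood stem and early progenitor cells are known to draw on glycolysis more than their mature progeny and to take up oxidative phosphorylation as they become active and differentiate.

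Mutant mice carried Mx1-Cre and floxed Mef2c alleles (Mx1-cre+ Mef2cfl/fl), and control mice carried the same floxed alleles without Cre (Mef2cfl/fl). Mef2c encodes a transcription factor, and the series concerns its role in the lymphoid or myeloid fate of these cells. All mice, controls included, received 250 µg of poly(I:C) on each of 4 days. Poly(I:C) mimics viral RNA, raises interferon and so switches on the Mx1 promoter, which is active in blood cells and also in other organs. Bone marrow was taken 2 days after the last injection, and 15000 lineage-negative c-kit+ Sca-1+ cells per sample were sorted. The labels give no age for the mice. Because only the mutants carried Cre, Cre and the loss of Mef2c cannot be told apart.

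Each of 3 arrays on 1 slide held 1 mutant sample, labelled with Cy3, and 1 control sample, labelled with Cy5, so that dye and genotype cannot be told apart. Separate animals are not stated for the samples, and the p-values below cover no more than the spread of the samples at hand, which may be technical. All 10 MPP markers were well above background in every library. Their median log2 ratio was -0.28 (-0.06 with array 2 turned), with 8 of 10 means below 0. The cytokine receptor gene Flt3 had -1.02, -1.26 and -1.19 on the arrays, and Ly6a, which encodes Sca-1, a marker of the sort, had 0.93, 0.51 and 1.02. The part of this shift in the results below was not tested. The control library of array 1 stood apart: its summed log2 level of 14 immediate early and heat shock genes was 19.19, against 16.32 to 17.55 in the other libraries, and that of 11 neutrophil markers was 16.66, against 13.86 to 14.36. Of the neutrophil markers 10 were above background in every library and none was at background in all of them. The summed level of 10 erythroid markers was 15.93 in that library and 14.61 to 15.27 elsewhere. For these and the immediate early and heat shock genes, controls were above their mutant partners on arrays 2 and 3 too. The immediate early and heat shock levels there were 17.55 and 17.19 in controls and 17.2 and 16.87 in mutants. The erythroid levels were 15.01 and 14.95 against 14.61 and 14.74. Leaving out array 1 thus does not remove these differences. Ratios were below 0 on every array in 6 of the 14 and 5 of the 10 genes (20.2% of all genes). The summed levels of macrophage, B cell and T and NK cell markers overlapped between the groups, at 11.45 to 12.27, 13.49 to 14.25 and 14.82 to 15.45. The part of these genes in the results below was not tested, and values without array 1 are given for the main counts and medians. Mef2c itself had 2 probes, with mean log2 ratios of -0.26 ± 0.61 (SD, n = 3) and 0.52 ± 0.48, so the RNA did not separate the genotypes. The labels do not say whether either probe lies in the deleted part.

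Ratios are given as log2 of mutant over control, so 1 is a doubling. They follow the labelled dyes. In the authors' deposited table, however, the column of array 2 has the reverse sign of the columns of arrays 1 and 3. The sources used here do not settle whether the dyes were swapped there or the column was turned. For the medians of the complexes and of the other gene lists, values with the sign of array 2 turned are therefore given as well.

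Promoter sequences of the subunit genes are shown first because many genes of this group are known to carry sites for NRF-1 and for ETS factors such as GABP, which control genes of the mitochondrion. RefSeq promoters, from 250 bases before to 50 bases after the start of each gene, were held for 65 of the 80 genes (GRCm38.p6). The core motif of NRF-1 was present on either strand in 17 of the 65 (26.2%), against 5.19% of 27025 genes with a promoter and 8.94% of the 13428 of these that were tested. The ETS motif CCGGAAG was present in 16 (24.6%, against 9.93% and 15.8%), and the YY1 motif in 5 (7.69%, against 0.995% and 1.81%). At least 1 of these motifs was found in 32 of the 65 (49.2%), against 14.6% of all genes and 23.9% of those tested. By complex these were 14 of 31 genes for complex I, 3 of 3 for complex II, 3 of 4 for complex III, 3 of 12 for complex IV and 9 of 15 for complex V. The Sp1 motif GGGCGG was in 26 (40.0%), against 38.2% of all and 58.5% of tested genes. Matches of different motifs overlapped in 1 promoter.

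The 250 bases before the start are printed for 4 genes taken up below whose promoters hold a match and no other annotated gene. They are written 5′ to 3′ in the direction of the gene, with the matches in capitals: the runs that begin with GCGCA are NRF-1 matches, and CTTCCGG is an ETS match on the opposite strand. Ndufb6 had the largest mean ratio of the group, Cox6a1 and Cox6b1 are widely expressed isoforms of complex IV with mean log2 ratios of 0.10 and 0.50, and Atp5g2 is 1 of 3 genes for the c subunit of complex V.
Ndufb6, chr4:40279422-40279671, minus strand: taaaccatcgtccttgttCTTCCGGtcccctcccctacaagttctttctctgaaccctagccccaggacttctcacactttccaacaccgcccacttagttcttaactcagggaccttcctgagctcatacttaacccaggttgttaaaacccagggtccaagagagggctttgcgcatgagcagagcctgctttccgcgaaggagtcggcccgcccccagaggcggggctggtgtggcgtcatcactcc
Cox6a1, chr5:115348959-115349208, minus strand: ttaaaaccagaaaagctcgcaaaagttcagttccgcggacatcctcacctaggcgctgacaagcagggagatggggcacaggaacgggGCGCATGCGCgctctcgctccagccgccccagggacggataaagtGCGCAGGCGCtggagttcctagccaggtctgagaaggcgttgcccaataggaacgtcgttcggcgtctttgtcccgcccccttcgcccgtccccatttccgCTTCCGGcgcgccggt
Cox6b1, chr7:30626115-30626364, minus strand: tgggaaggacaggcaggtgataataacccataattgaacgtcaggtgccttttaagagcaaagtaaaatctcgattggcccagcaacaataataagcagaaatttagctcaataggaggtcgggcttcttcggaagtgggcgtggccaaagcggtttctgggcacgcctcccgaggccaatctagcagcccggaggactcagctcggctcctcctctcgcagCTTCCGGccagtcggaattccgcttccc
Atp5g2, chr15:102671048-102671297, minus strand: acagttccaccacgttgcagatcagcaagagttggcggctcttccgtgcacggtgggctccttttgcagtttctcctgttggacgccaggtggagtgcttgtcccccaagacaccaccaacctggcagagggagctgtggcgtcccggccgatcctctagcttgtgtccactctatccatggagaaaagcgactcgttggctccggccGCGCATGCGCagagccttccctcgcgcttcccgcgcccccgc

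The Ndufb6 promoter held 1 ETS match, far from the start, at base -232. That of Cox6a1 held 2 NRF-1 matches, at bases -162 and -117, and 1 ETS match at base -16. Cox6b1 had 1 ETS match at base -28 and Atp5g2 1 NRF-1 match at base -42. The median log2 ratio was 0.35 in the 32 genes with any of the 3 motifs and 0.25 in the 33 without. For NRF-1 alone it was 0.21 with a match and 0.31 without. A match of letters does not show that a factor binds there.

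Across the 5 complexes the mean ratio lay above 0 for 70 of the 79 genes tested (88.6%), against 45.4% of all genes. The median of their mean log2 ratios was 0.29, a fold of 1.22, with quartiles of 0.09 and 0.53 and a range from -0.48 to 1.31. The median of all genes was -0.04. No single subunit gene passed the test over all genes: by limma, 0 of 79 had an adjusted p under 0.05, as did 0 of all 22410 genes (0%), and the smallest adjusted p was 0.466. At an unadjusted p under 0.05, 9 subunit genes were higher (11.4%, against 4.84% of all genes) and 0 were lower (5.3% of all genes). In these bulk samples, fewer cells of a type and less RNA per cell cannot be told apart.

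The same side of 0 was seen on every array in 35 genes for higher ratios (44.3%, against 15.2% of all genes). In the other direction it was seen in 1 gene, Cox6a2 (1.27%, against 20.2%). By array, 66, 52 and 59 of the 79 ratios lay above 0, with medians of 0.38, 0.21 and 0.27. Of all 22410 genes, 10243, 10089 and 11278 lay above 0 on arrays 1, 2 and 3, with medians of -0.07, -0.05 and 0.00. All 3 mutant libraries were above all 3 control libraries in 22 genes (27.8%, against 7.2% of all genes), and none was below (11.7%). The mutant library of array 1 was the highest of the 6 for 29 genes and that of array 3 for 27. The mutant library of array 2 was the highest for 12 and the lowest for 12. The control library of array 1 was the lowest for 32 and that of array 2 for 22. The same counts were not made over all genes. The spread of a subunit gene over the arrays was near that of all genes, with a median SD of 0.37 against 0.40. Genes of like brightness were not compared. Ratios of the 79 genes correlated across arrays with r = 0.413 between arrays 1 and 2, 0.148 between 1 and 3 and -0.0438 between 2 and 3. For all genes the same correlations were 0.305, 0.128 and 0.0378. Genes are not independent replicates, and all arrays share a slide and a dye orientation as labelled.

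Without array 1, the mean ratio lay above 0 for 61 of 79 genes (77.2%, against 47.4% of all genes), and the median was 0.23. With array 2 turned, this was 61 of 79 again (77.2%, against 48.3%), the median was 0.15, and 0 genes were higher at an unadjusted p under 0.05 by limma (1.53% of all genes). The count above 0 on every array was then 13 (16.5%, against 10.7% of all genes). Median centring in place of loess moved the median of all genes to -0.175 and that of the subunit genes to 0.16, which left the distance between them at 0.33, as in the main analysis. Loess corrects for brightness, and the subunit probes were bright, with a median log2 signal of 13.53 against 10.19 for all genes.

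**Figure D1:**
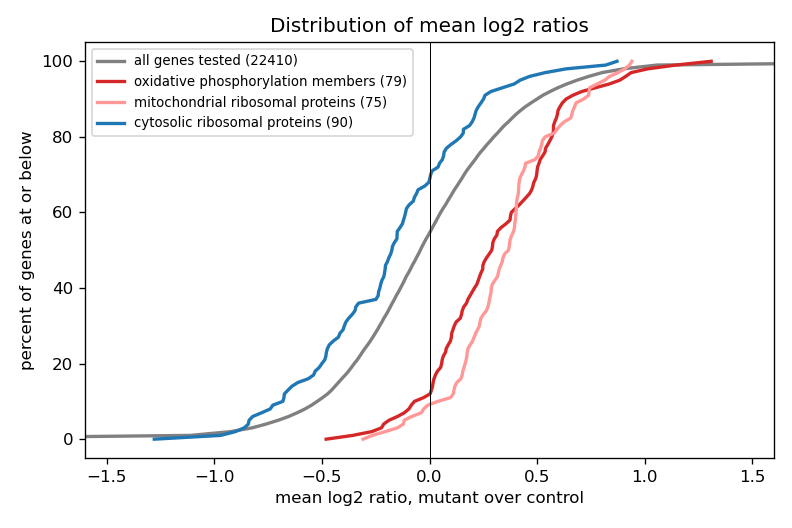
Percent of genes (vertical axis) whose mean log2 ratio, mutant over control, was at or below the value on the horizontal axis, for the 79 oxidative phosphorylation genes, 75 mitochondrial ribosomal protein genes, 90 cytosolic ribosomal protein genes and all 22410 genes tested. The subunit genes lie to the right of all genes, with a median of 0.29 against -0.04, and close to the mitochondrial ribosomal protein genes with 0.37.

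Complex I takes electrons from NADH. Its 35 genes had a median log2 ratio of 0.26, with array medians of 0.24, 0.21 and 0.30, and 31 of the 35 means lay above 0. The 7 genes for core subunits, which carry the flavin and the iron-sulfur clusters or line the path to ubiquinone, had a median of 0.47. All 7 ratios lay above 0 on all 3 arrays, with means from 0.18 for Ndufs1 to 0.88 for Ndufv1. This median was 0.35 without array 1 and 0.13 with array 2 turned. The 28 accessory genes had a median of 0.22, and 9 of them lay above 0 on every array. Their median was 0.17 without array 1 and 0.11 with array 2 turned. The median of the whole complex was 0.25 without array 1 and 0.12 with array 2 turned.

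Ndufv1 binds the flavin where NADH is oxidised. Its log2 levels were 11.21, 10.15 and 10.34 in the control libraries of arrays 1, 2 and 3 and 12.31, 10.82 and 11.21 in the mutant libraries. Each mutant library was above its partner, but the groups overlapped, because both libraries of array 1 were high. The log2 ratio was 0.88 ± 0.22 (SD, n = 3; limma adjusted p = 0.466). Ndufs8 carries iron-sulfur clusters, and its levels were 12.99, 13.28 and 13.63 in controls and 14.25, 13.71 and 13.95 in mutants, without overlap. Its ratio was 0.67 ± 0.51 (adjusted p = 0.489).

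Ndufb6 is an accessory subunit of the membrane arm and had the largest mean ratio among the 79 genes. Its levels were 10.25, 10.91 and 10.44 in controls and 12.30, 11.80 and 11.43 in mutants. All mutants lay above all controls, and the gap was widest on array 1. The log2 ratio was 1.31 ± 0.64 (SD, n = 3), a fold of 2.48, with a limma adjusted p of 0.466. Ndufa11, an accessory subunit of the membrane arm, had control levels of 11.37, 11.66 and 11.96 and mutant levels of 12.76, 12.62 and 12.44. The groups were again apart, with a ratio of 0.95 ± 0.46 (adjusted p = 0.466), and a second Ndufa11 probe had a mean of 0.97.

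Of the complex I means, 4 lay below 0. Ndufa12, an accessory subunit, had the lowest mean ratio of the group. Its control levels were 14.15, 14.15 and 13.86, and its mutant levels 14.26, 13.66 and 12.80. Only the mutant library of array 3 was far below the rest, and the ratio was -0.48 ± 0.58 (SD, n = 3; limma adjusted p = 0.56). Further Ndufa12 probes had means nearer to 0, at -0.08 and -0.25. Ndufa6, an accessory subunit of the LYR protein family, had ratios of -0.23, -0.71 and 0.39. The third array thus opposed the others. Ndufa4, named as a complex I gene but now assigned to complex IV, had ratios of 1.03, 0.31 and 0.26, and its mutant libraries all lay above its controls.

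**Figure D2:**
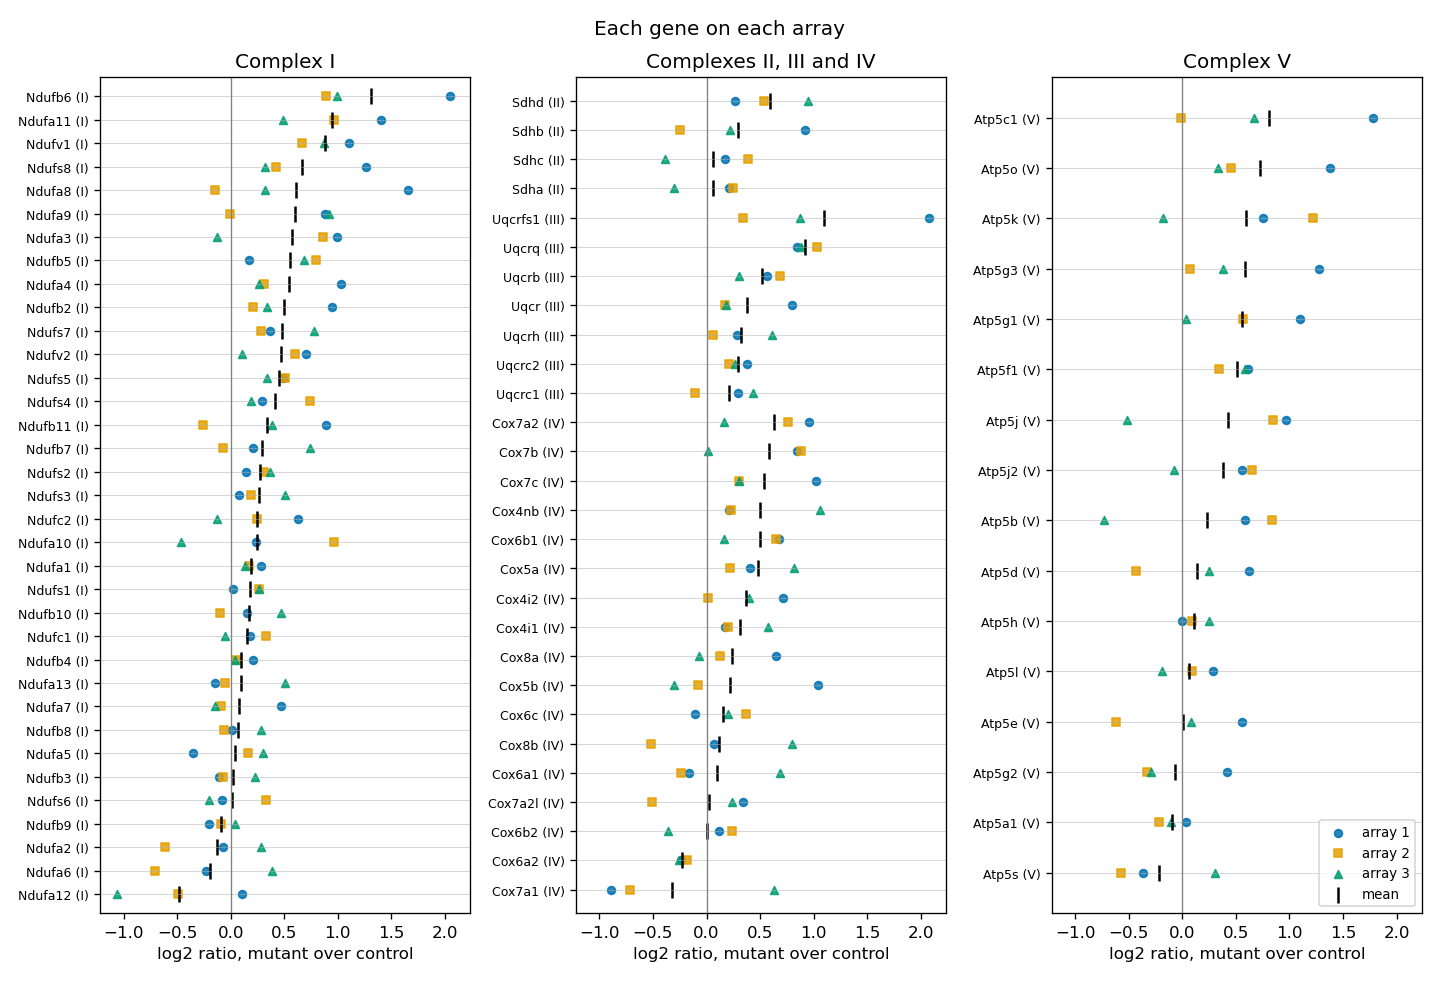
Log2 ratio of mutant over control (horizontal axis) for each of the 79 oxidative phosphorylation genes on each of the 3 arrays, in panels by complex. Symbols are arrays and black ticks are means of the arrays, which run from -0.48 for Ndufa12 to 1.31 for Ndufb6; 35 genes have all 3 symbols to the right of 0.

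Complex II, the succinate dehydrogenase of the citric acid cycle, is encoded entirely in the nucleus and pumps no protons. Its 4 genes had a median log2 ratio of 0.18, with 4 of 4 means above 0, array medians of 0.24, 0.32 and -0.04, and medians of -0.01 without array 1 and 0.06 with array 2 turned. Sdhd, a membrane anchor, had levels of 13.81, 13.41 and 13.51 in controls and 14.07, 13.95 and 14.47 in mutants. Its groups did not overlap, and the ratio was 0.59 ± 0.35 (SD, n = 3; limma adjusted p = 0.487). The other anchor gene, Sdhc, had ratios of 0.17, 0.39 and -0.39. The flavoprotein gene Sdha had ratios of 0.21, 0.25 and -0.30 and the iron-sulfur gene Sdhb 0.92, -0.25 and 0.22. Each of these 3 genes thus held both signs, and their libraries overlapped.

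Complex III, the cytochrome bc1 complex, had the highest median of the complexes, 0.38. All 7 means lay above 0, as did all 3 ratios of 6 of the genes. Its array medians were 0.56, 0.21 and 0.43, and the median was 0.33 without array 1 and 0.27 with array 2 turned. Uqcrq, a small subunit in the membrane, had the smallest p of the subunit genes. Its levels were 11.37, 10.47 and 10.80 in controls and 12.22, 11.49 and 11.68 in mutants. The groups lay apart with a nearly even step on each array, and the ratio was 0.92 ± 0.10 (SD, n = 3; limma adjusted p = 0.466). A second, dimmer Uqcrq probe did not share this, with ratios of -0.99, 0.35 and 0.52.

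Uqcrfs1, the Rieske iron-sulfur protein that hands electrons to cytochrome c1, had levels of 8.59, 8.97 and 9.43 in controls and 10.68, 9.31 and 10.30 in mutants. The groups overlapped, because the mutant of array 2 lay below the control of array 3, and the ratio of 1.10 ± 0.89 (SD, n = 3; limma adjusted p = 0.468) leaned on array 1, without which it was 0.60. The core genes Uqcrc1 and Uqcrc2, whose proteins face the matrix, had smaller ratios. For Uqcrc1 the arrays gave 0.29, -0.11 and 0.43, and for Uqcrc2 0.38, 0.21 and 0.27. The small subunit genes Uqcrq, Uqcrb, Uqcrh and Uqcr had a median of 0.45, and all 4 lay above 0 on every array. With array 2 turned their median was 0.25.

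**Figure D3:**
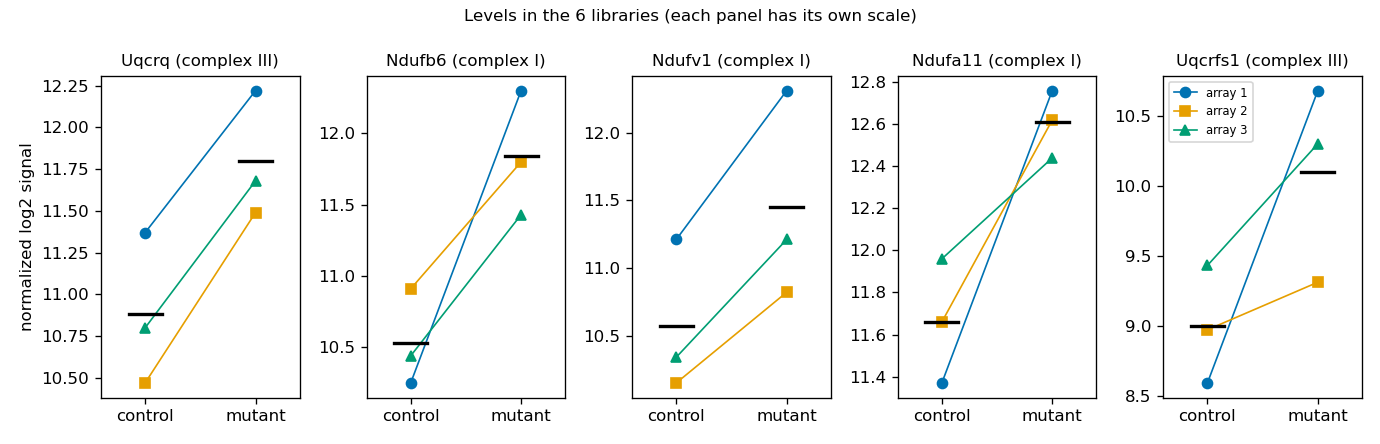
Normalized log2 signal (vertical axis, a separate scale for each gene) in the 3 control and 3 mutant libraries for the 5 subunit genes with the smallest p. Lines join the libraries of 1 array and bars are group means; each line goes up from control to mutant, and no gene had an adjusted p under 0.05 by limma (0.466 to 0.468).

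Complex IV, cytochrome c oxidase, uses isoforms that depend on the tissue. Its 17 tested genes had a median of 0.24, with array medians of 0.34, 0.20 and 0.24. The median was 0.23 without array 1 and 0.18 with array 2 turned. The 10 genes for widely expressed subunits had a median of 0.40, and all 10 means lay above 0, 6 of them on every array. The 5 tested genes for tissue isoforms had a median of 0.00, which was -0.03 with processed signals, -0.07 with median centring and -0.21 without array 3. Their probes were dimmer, with a median log2 signal of 10.24 against 13.8 for the widely expressed genes. The dimmest, Cox8b, had mean levels of 7.99 in mutants and 7.87 in controls. The part of signal strength in this difference was not tested. Without array 1 the widely expressed forms had a median of 0.34 and the tissue forms of -0.04. With array 2 turned, the widely expressed and the tissue forms had like medians, 0.16 and 0.15.

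Cox7a2, the widely expressed form of subunit 7a, had levels of 12.86, 12.98 and 13.46 in controls and 13.82, 13.74 and 13.63 in mutants. The groups did not overlap, and the ratio was 0.63 ± 0.41 (SD, n = 3; limma adjusted p = 0.484). Its heart and muscle partner Cox7a1 had ratios of -0.89, -0.71 and 0.63, and so changed side on array 3. Cox7b, a small subunit, had ratios of 0.84, 0.88 and 0.01. Cox6b1, the form of subunit 6b whose promoter is printed above, had levels of 13.68, 13.98 and 14.12 in controls and 14.35, 14.63 and 14.28 in mutants. Its groups lay apart, at a ratio of 0.50 ± 0.29 (adjusted p = 0.502), while the testis form Cox6b2 had a mean of 0.00.

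Cox6a1, the other complex IV gene printed above, had levels of 13.32, 13.05 and 12.45 in controls and 13.15, 12.81 and 13.14 in mutants. The libraries overlapped, and the ratio was 0.10 ± 0.51 (SD, n = 3; limma adjusted p = 0.903). The muscle form Cox6a2 was the 1 subunit gene with all 3 ratios below 0, at -0.24, -0.18 and -0.26 (adjusted p = 0.678), and its libraries overlapped too. Cox4i1, the common form of subunit 4, had ratios of 0.17, 0.20 and 0.57, and Cox4i2, the form known from lung and from low oxygen, 0.71, 0.01 and 0.40. Both forms of subunit 4 thus stayed on the same side. For subunit 8, the liver-type form Cox8a had a mean of 0.24 and the muscle form Cox8b of 0.12, with arrays of both signs in each.

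Complex V, the ATP synthase, was the least even across arrays. Its 16 genes had a median of 0.30, but the array medians were 0.59, 0.09 and 0.05, and the median was 0.17 without array 1 and 0.16 with array 2 turned. Ratios lay above 0 on every array in 4 genes. The F1 part, counted here with the central stalk, and the rest of the enzyme differed by array. The 5 F1 genes had array medians of 0.58, -0.22 and 0.08, and none lay above 0 on every array. The 10 genes for the peripheral stalk and the membrane part FO had 0.68, 0.39 and -0.03. With array 2 turned, the median of the F1 genes went from 0.14 to 0.42 and that of the other part from 0.47 to 0.10, so their order turned too. Without array 1 the median of the F1 genes was -0.09 and that of the other part 0.25. This difference between the parts of the enzyme was not tested.

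Atp5c1 encodes the rotating gamma subunit of F1. Its levels were 10.60, 10.98 and 10.78 in controls and 12.38, 10.97 and 11.45 in mutants, so array 2 showed no step. The ratio was 0.81 ± 0.90 (SD, n = 3; limma adjusted p = 0.502), and 0.33 without array 1. Atp5a1, the alpha subunit of the F1 head, had ratios of 0.03, -0.22 and -0.11 and overlapping libraries. Atp5o, a part of the peripheral stalk, had levels of 12.58, 12.79 and 13.09 in controls and 13.97, 13.23 and 13.42 in mutants. Its groups lay apart, with the widest gap on array 1, at a ratio of 0.72 ± 0.58 (adjusted p = 0.484).

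The c subunit, which forms the rotor ring in the membrane, is encoded by 3 genes whose mature proteins are the same. Atp5g1 had ratios of 1.10, 0.57 and 0.03 and Atp5g3 1.28, 0.07 and 0.38. Atp5g2, with its NRF-1 match printed above, had ratios of 0.42, -0.33 and -0.29, and its second probe had a mean of 0.36. Only for Atp5g1 did all mutant libraries lie above all controls. Atp5s, which matches by its old name and is now called Dmac2l, had ratios of -0.37, -0.57 and 0.30. It is no subunit of the enzyme, nor are the products of Cox4nb, now Emc8, and Cox7a2l, a supercomplex factor. Without these 3 genes the median of the remaining 76 was still 0.29.

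**Figure D4:**
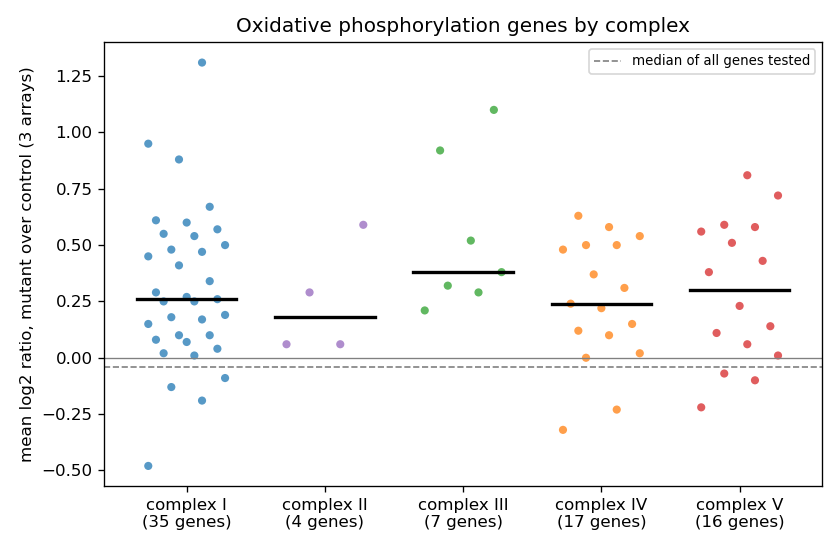
Mean log2 ratio of mutant over control over 3 arrays (vertical axis) for each oxidative phosphorylation gene, grouped by complex. Points are genes, black bars the medians of the complexes, which run from 0.18 for complex II to 0.38 for complex III, and the dashed line the median of all genes at -0.04.

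Several genes had a second probe against which the ratio could be read. Of the 23 subunit genes with more than 1 kept probe, the other probes lay on the same side of 0 in 17 and on the other side in 6. Those 6 were Atp5a1, Atp5g2, Atp5s, Cox5a, Ndufa3 and Uqcrq. In no gene did probes lie beyond 0.5 on both sides. The other probes had a mean above 0 in 19 of the 23.

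The genes around the complexes were described in the same way. Of 46 genes for assembly factors, which build the complexes and are not part of them, 32 means lay above 0 and the median was 0.30, which was 0.18 without array 1 and 0.07 with array 2 turned. At an unadjusted p under 0.05 by limma, 7 were higher (15.2%, against 4.84% of all genes) and 0 lower (5.3% of all genes). The copper chaperone Sco1, which loads complex IV, had the highest ratio of that list, with 2.73, 2.26 and 0.84 on the arrays (limma adjusted p = 0.466). Its levels were 7.51, 6.98 and 9.22 in controls and 10.24, 9.24 and 10.06 in mutants, and the groups lay apart. Atpaf2, which helps to assemble F1, was the lowest, at -0.45.

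Of 75 genes for mitochondrial ribosomal proteins, which translate the subunits encoded by mitochondrial DNA, 68 means lay above 0, with a median of 0.37. This median was 0.23 without array 1 and 0.17 with array 2 turned. Ratios were above 0 on every array in 34 of them (45.3%), close to the 44.3% of the subunit genes. Cytosolic ribosomal proteins had a median of -0.18, which was -0.24 without array 1 and -0.01 with array 2 turned. Of their 90 genes, 28 means lay above 0. Ratios were below 0 on every array in 37 of them (41.1%, against 20.2% of all genes). At an unadjusted p under 0.05 by limma, 17 of the 90 were lower (5.3% of all genes) and 3 higher (3.33%, against 4.84%). Relative to the median of all genes this list lay 0.13 lower in the main analysis and 0.21 lower with median centring. It lay 0.01 higher with processed signals, so its distance from all genes changed with the scaling. The subunit genes lay 0.33 above all genes in the main analysis and with median centring, and 0.34 with processed signals.

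The list of the citric acid cycle and electron carriers also held Cyc1 of complex III, Ndufab1 of complex I and the carriers Slc25a3, Slc25a4 and Slc25a5. It is thus not separate from the complexes. Of its 25 means, 20 lay above 0, with a median of 0.17 (0.11 without array 1 and 0.07 with array 2 turned). Idh3a, a subunit of isocitrate dehydrogenase, was highest at 0.90 and the phosphate carrier Slc25a3 lowest at -0.14. At an unadjusted p under 0.05 by limma, 1 gene was higher (4.0%, below the 4.84% of all genes) and 0 lower (5.3% of all genes). Of 24 glycolysis genes, 16 means lay above 0 and the median was 0.31, or 0.12 without array 1 and 0.23 with array 2 turned. At the same threshold 8 of them were higher (33.3%, against 4.84% of all genes) and 1 lower (5.3% of all genes), from Pfkp, a phosphofructokinase, at 1.06 to the neuronal enolase Eno2 at -0.70. The 19 regulators of mitochondrial biogenesis had 10 means above 0 and a median of 0.02. The median of these regulators was -0.06 with processed signals, -0.08 with median centring, 0.06 without array 1 and 0.02 with array 2 turned. Among them the coactivator Ppargc1b was highest at 0.89, on the strength of 2.22 on array 1 and 0.25 and 0.21 on the others. Tfam, which packs and transcribes mitochondrial DNA, was lowest at -0.29, and Nrf1 had ratios of -0.26, 0.44 and -0.88. No gene of these lists had an adjusted p under 0.05. Of the subunits encoded by mitochondrial DNA, none was matched to a probe by name, and they are not analysed here.

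**Figure D5:**
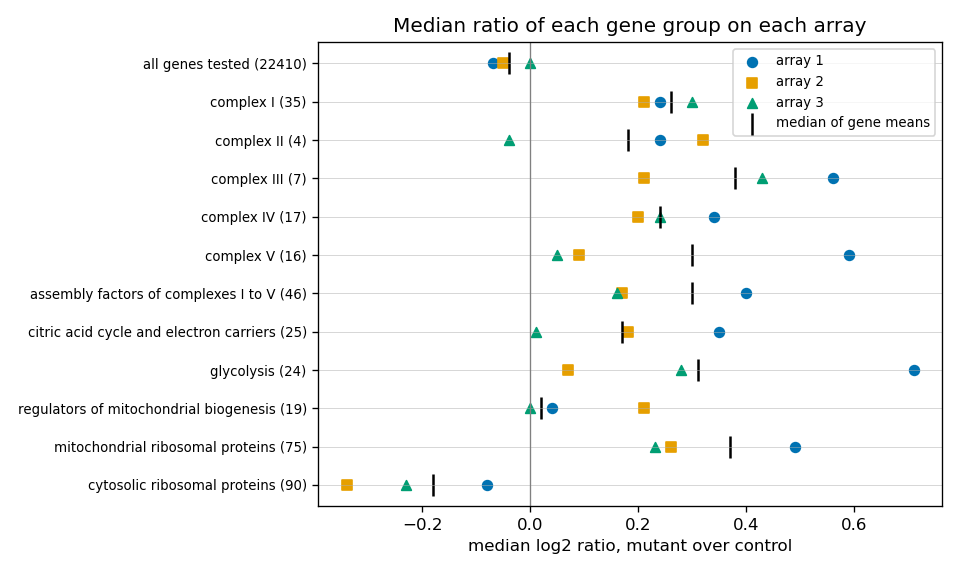
Median log2 ratio of mutant over control (horizontal axis) of each gene group on each array (symbols) and median of the genes' means (black ticks), with the number of genes in brackets. All 3 array medians lie above 0 for complexes I, III, IV and V and for the mitochondrial ribosomal proteins. The same holds for the assembly factors, the citric acid cycle and electron carriers, and glycolysis. Complex II has -0.04 on array 3, and the cytosolic ribosomal proteins lie below 0 on each array.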

How the data were processed

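RNA of sorted MPPs was amplified by a global PCR of cDNA (SuperAmp), per the labels' protocols, which can distort levels. The deposited scanner files give the linear intensity of each spot from Agilent Feature Extraction 9.5.1.1. They also give processed signals, which the software had background-subtracted and dye-normalized, and their red over green ratio as log10, per the file headers. A further table holds the authors' deposited log2 ratio of each spot. Limma is named, without its version, in the submitters' processing notes, and the normalization and genome build are not given in the sources used here. Deposited ratios correlated with the scanner's Cy5 over Cy3 ratio at -0.947, 0.935 and -0.939 on arrays 1 to 3, with column medians of -0.0148, 0.0129 and -0.00249. They served as an alternative.

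Mean signals were corrected by normexp (offset 50, median local background) and normalized by loess within arrays, with control spots at weight 0. Outlier spots were left out (300, 331 and 252). Levels of single libraries were also normalized between arrays by Aquantile, which keeps the ratios. Of 41174 probes, 32911 were kept, as 1 channel exceeded background clearly on 2 or more arrays. Each gene name took its brightest probe. The share of probes above background ran from 73.4% to 80.4% per library, 0 spots were saturated, and the 3 arrays limit the precision. Each gene's mean ratio was tested by limma (lmFit and eBayes; version 3.58.1, R 4.3.3), with p-values adjusted by Benjamini-Hochberg over 22410 genes. On simulated ratios for this comparison with 22410 genes, the test at an adjusted p under 0.05 found 0 of 67 simulated 2-fold changes, 33 of 67 at 4-fold and 63 of 66 at 16-fold, and made 8 false calls. Where the simulation held no 16-fold changes, it found 0 of 100 at 2-fold and 0 of 100 at 4-fold.

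The gene group, the lists and the tests were chosen with earlier results of these data known. Named genes were the 2 highest and 2 lowest of each complex, the 5 with the smallest p, fixed paralog pairs, the extremes of each other list, and Mef2c. Other genes were named after their values were seen: Ndufs8, Ndufs1, Uqcrb, Uqcrh, Uqcr, Cox5a, Ndufa3, Nrf1, Flt3, Ly6a and the genes that match by name only. Promoters and motifs were matched by current symbol. A planned comparison of paralogous proteins was not run. Alternatives covered background correction, normalization, the filter, the direction of array 2, deposited ratios, probe averaging, current symbols and leaving out each array.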

Additional observations from a re-analysis of the deposited data

How the results depend on the processing

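No setting gave a subunit gene an adjusted p under 0.05 by limma, and the median of all subunit genes stayed above 0 under each setting run, from 0.15 to 0.33. The count higher at an unadjusted p under 0.05, 9 in the main analysis, was 5 with processed signals (3.12% of all genes were), 5 with median centring (2.49%), 15 without the filter (4.68%) and 0 with array 2 turned (1.53%). The count above 0 on every array, 35, was 19 with median centring (8.79% of all genes) and 13 with array 2 turned. Medians of all subunit genes and of complex I moved from 0.29 and 0.26 to 0.16 and 0.16 with median centring and to 0.15 and 0.12 with array 2 turned. Complex I was at 0.18 with processed signals, and complex IV at 0.15 with median centring. Median centring also took complex V from 0.30 to 0.07. The cause of these moves was not tested.

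Leaving out each array in turn gave 6 to 13 genes higher and 0 to 1 lower at an unadjusted p under 0.05. The share of all genes moved as well, from 2.98% to 6.26% higher and from 3.12% to 6.35% lower. The lower ones were Ndufa12 without array 1 (-0.78) and Cox7a1 without array 3 (-0.80). Medians then ran from 0.23 to 0.33 for all subunit genes, 0.25 to 0.26 for complex I, -0.01 to 0.31 for complex II, 0.33 to 0.48 for complex III, 0.22 to 0.37 for complex IV and 0.17 to 0.54 for complex V.

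Some subunit genes changed sign, and not only those near 0. In the main analysis Cox7b was at 0.58, Cox7a1 at -0.32 and Sdhb at 0.29. Of the 32 subunit genes named by fixed rules, 9 changed sign with array 2 turned. With processed signals Cox6b2 was at -0.03, Sdha at -0.05 and Sdhc at -0.10. With median centring Cox6b2 was at -0.07, Cox8b at -0.03, Sdha at -0.10 and Sdhc at -0.03. With array 2 turned, Atp5a1 was at 0.05, Atp5g2 at 0.15, Atp5s at 0.17, Cox7a1 at 0.15, Ndufa6 at 0.29, Cox6b2 at -0.16, Cox7b at -0.01, Sdha at -0.11 and Sdhc at -0.20. The mean of the probes put Atp5g2 at 0.15 and Atp5s at 0.08. Leaving out each array gave -0.12 to 0.18 for Cox6b2, -0.04 to 0.23 for Sdha, -0.02 to 0.57 for Sdhb, -0.11 to 0.28 for Sdhc, -0.31 to 0.06 for Atp5g2, -0.47 to 0.08 for Ndufa6, -0.20 to 0.26 for Cox6a1 and -0.22 to 0.44 for Cox8b. The main test already pairs the mutant and control sample of each array, so no further replicate block was fitted.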

Other observations

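Subunits and partners that the array lists under other names were outside the name rule and give values of the same kind. For the complex III subunit Uqcr10 the arrays gave log2 ratios of 0.75, 1.03 and 0.18, with a mean of 0.65 ± 0.43 (SD, n = 3). The complex I subunit Ndufv3 had 0.76, 0.87 and 0.03, and the cytochrome c1 gene Cyc1 0.48, 0.63 and -0.23, so both had their lowest ratio on array 3. Atpif1, which inhibits the ATP synthase when it runs in reverse, had 0.20, 0.44 and 0.23. The complex V subunits Atp5md and Atp5mpl had means of 0.53 and 0.24. A probe listed under a clone name but matched to Sdha had a mean of 0.72, whereas the Sdha probe described above had 0.06. These genes were chosen after values were seen, and none was tested as a group.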
